A study of Mus musculus with 8 samples.

Results

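The proteasome mRNAs of mouse oocytes at nuclear envelope breakdown (NEBD) were followed through a polysome gradient. They were taken as all genes whose symbol is Psm followed by a letter from a to g and a number, which gave 48 of the 25574 genes in the deposited table. Of these, 19 carry Psma or Psmb symbols and belong to the 20S core, 20 carry Psmc or Psmd symbols and belong to the 19S regulatory particle or assist its assembly, and 9 are activators, an inhibitor and assembly factors of the core (Psme, Psmf, Psmg). The rule itself uses symbols and no measured values.

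Fully grown oocytes came from 8 weeks old CD1 mice injected with pregnant mare serum gonadotropin. They were freed of cumulus cells, cultured for 180 min without the meiotic inhibitor IBMX and then exposed to 0.1 mg/ml cycloheximide, a drug that holds ribosomes on mRNA, for a further 10 min. Lysates of 200 oocytes were separated on sucrose gradients by SSP-profiling, a polysome fractionation scaled down for scarce material, and RNA of the non-polysomal (NP) and the polysomal (P) fractions was sequenced in 4 libraries each. Both pools were cut from the same gradients, so NP and P are 2 parts of each profile and not 8 independent samples, and all oocytes were exposed to the drug. The tests treated the 8 libraries as separate. The comparison of P with NP asks which mRNAs sat on polysomes at this stage. FPKM, the deposited unit, scales reads by gene length and library size and is a share of its own pool, so it does not give the portion of an mRNA's molecules that was on polysomes. Each library is a bulk pool, in which fewer oocytes holding an mRNA and less of it per oocyte cannot be told apart.

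The proteasome degrades proteins marked with ubiquitin chains. Its 20S core is a barrel of stacked rings, with alpha subunits at the gate and beta subunits, some of them proteolytic, inside. The 19S particle caps the barrel, and its base holds the ATPases that unfold the substrate while its lid holds the enzyme that removes ubiquitin. In the maturing oocyte the proteasome destroys cyclin B and securin after the anaphase-promoting complex has marked them, which allows the first meiotic division to finish.

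The FPKM steps showed libraries scaled to between 1299377 reads (NP replicate 2) and 7594637 reads (NP replicate 4), and P libraries listed 9139 to 11339 genes above 0 against 11703 to 13753 in NP. All 12 oocyte markers were detected, with summed FPKM of 6872 to 13538 in NP and 8935 to 34437 in P. Granulosa and cumulus markers summed to 6.07 to 78.2 in NP and 1.61 to 62.6 in P, with Cyp19a1 making up most of the highest sums, while Foxl2, Inhba, Has2, Ptx3 and Amhr2 were at 0. Theca and stroma markers summed to 0.114 to 51.5 and 0 to 19.5, led by Cyp11a1 where they were highest. Of 8 leukocyte markers, 5 were at 0, among them Ptprc and Cd74, and the list summed to 3.59 to 11.5 and 0 to 37.1, led by H2-Aa where it was highest. The part of these signals in the results was not tested.

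Proteasome mRNAs were abundant in both pools. Of the 48 members, 39 had a value above 0 in all 8 libraries and 45 passed the filter for testing, a mean above 0.1 FPKM in at least 1 dataset. The filter was met in both datasets by 41 members, in NP alone by Psmb10, Psmb11 and Psme2, and in P alone by Psme1, whereas Psmb8, Psmb9 and Psma8 failed it. The median tested member stood at the percentile 79.0 of the 14292 tested genes in NP and 80.8 in P. All members together made up 0.747% ± 0.125 (SD, n = 4) of summed FPKM in NP and 0.680% ± 0.176 in P. A mean above 50 FPKM in P was reached by 18 members, 40.0% of those tested, against 12.9% of all tested genes.

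**Figure D1:**
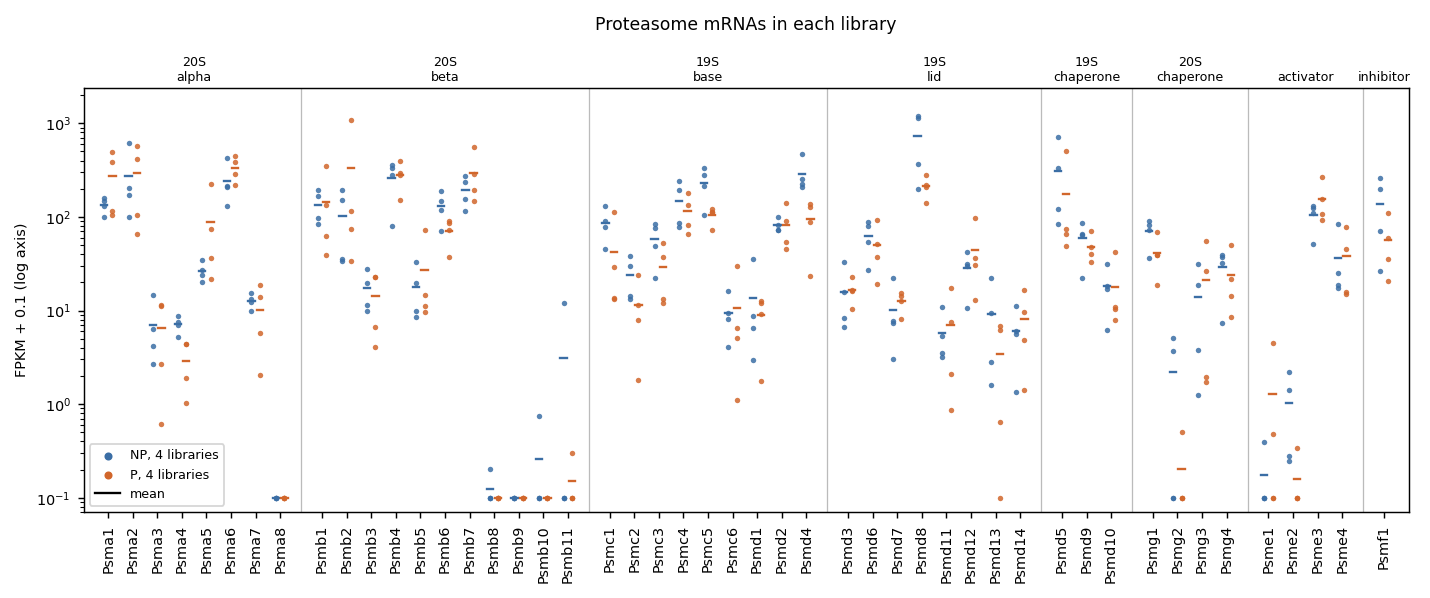
FPKM of the 48 proteasome genes in each library, with 0.1 added and on a log axis, ordered by role; each point is 1 library, blue for NP and orange for P, and the short line is the mean of 4. The NP and P libraries overlap for most standard subunits, and Psma8, Psmb8 and Psmb9 lie at or near 0.

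The subunits of one particle, most of which it holds in equal numbers, did not have equal mRNA levels in FPKM. Over the 31 standard subunits of the core, base and lid, mean FPKM ran from 5.64 for Psmd11 to 726 for Psmd8 in NP, a 129-fold range. In P it ran from 2.81 for Psma4 to 334 for Psma6, a 119-fold range. FPKM divides by a gene length, and the length that fitted the deposited values was 6383 bases for Psmd11 and 1512 bases for Psmd8. Their coding sequences are 1269 and 1062 bases. The part of gene length and of cDNA amplification in these ranges was not tested. The order was much alike in both pools, with a Spearman rho of 0.913 between the NP and P means across these 31 genes, and between single libraries rho was 0.827 to 0.902 within NP, 0.727 to 0.858 within P and 0.760 to 0.882 between them. These are correlations across genes that share library and length, and genes are not replicates.

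The 6 highest means in NP were those of Psmd8 (726), the assembly chaperone Psmd5 (311) and Psmd4 (289), with 19S symbols, followed by the core subunits Psma2 (272), Psmb4 (263) and Psma6 (244). In P the 6 highest were the core subunits Psma6 (334), Psmb2 (329.8), Psmb7 (295), Psma2 (291), Psmb4 (281) and Psma1 (274), and the gaps between neighbours in this list were smaller than their SDs. Single libraries carried some of these means, since P replicate 1 held 83.1% of the summed P level of Psmb2, whose P median was 94.7, and NP replicate 4 held 57.1% of the summed NP level of Psmd5, whose NP median was 225.

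**Figure D2:**
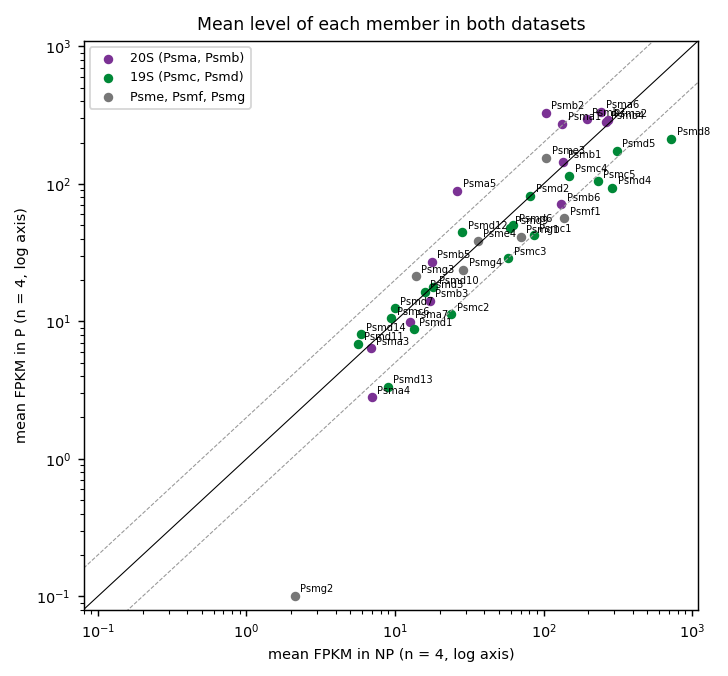
Mean FPKM in P against mean FPKM in NP, both on log axes, for the 41 members above 0.1 FPKM in both datasets, coloured by 20S, 19S and other symbols; the solid line marks equal means and the dashed lines a factor of 2. Psmb2, Psma1 and Psma5 lie above the upper dashed line. Psmd8, Psmd4, Psmc5, Psmc1, Psmc2, Psmc3 and the inhibitor Psmf1 lie below the lower one, as do Psma4, Psmd13 and Psmg2 at low levels.

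No member passed the test of P against NP. At an adjusted p below 0.1 (limma on log2(FPKM + 1), Benjamini-Hochberg over all genes), 0 of 45 members and 3 of 14292 genes (0.0210%) were called, and limma-voom on reads recovered from the FPKM steps also called 0 of 43 members, against 198 of 13364 genes (1.48%). At an unadjusted p below 0.05, 2 members (4.44%), Psmd4 and Psmd8, were higher in NP against 9.47% of all genes, and 0 were higher in P against 0.476%. The 4 NP libraries lay wholly above the 4 P libraries for 2 members (4.44%), Psmd4 and Psma4, against 5.92% of all genes, and the reverse held for 0 members against 0.357%. These shares are near or below those of all genes.

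The median log2 fold change, P over NP, was −0.29 over the 45 members and −0.39 over all genes tested. Values below 0 were found for 30 members (66.7%) and for 71.4% of all genes. A fold change past 2 was seen for 11 members higher in NP (24.4%, against 25.8% of all genes) and for 1 higher in P (2.22%, against 4.14%), the core subunit Psma5. The sign of these medians depends on the scale of the libraries. After quantile normalization the median was 0.10 for members and −0.02 for all genes, and with all libraries brought to one median it was 0.88 and 0.21. Relative to all genes, the members' median was higher by 0.10 on the deposited scale and by 0.67 with libraries scaled to one median. With 0.1 in place of 1 added to FPKM before the log it was higher by 0.50, at −0.33 against −0.83. It was higher by 0.017 without a filter and by 0.75 with voom.

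**Figure D3:**
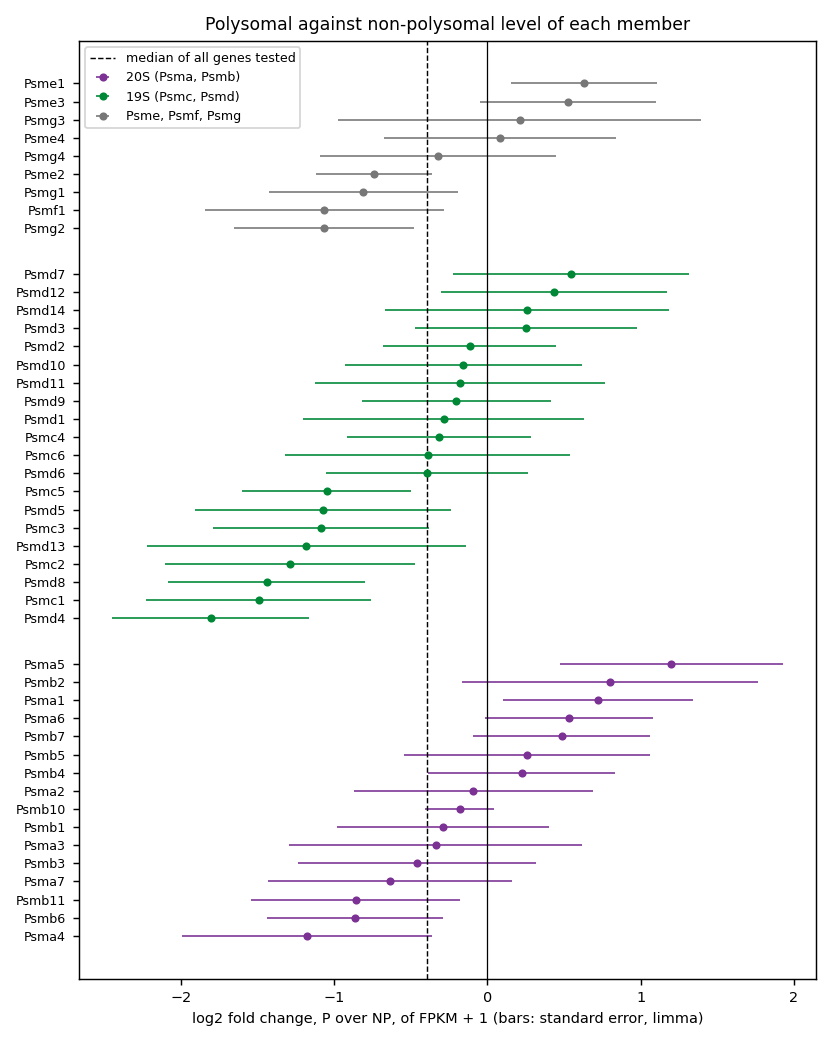
Log2 fold change of FPKM + 1, P over NP, with its standard error from limma (4 libraries in each dataset), for the 45 tested members in 3 blocks, 20S, 19S and other symbols; the dashed line is the median of all genes tested, −0.39. The 19S block holds the most negative values, down to −1.81 for Psmd4, and the 20S block the highest, 1.20 for Psma5.

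The core and the regulatory particle were then set side by side within each library, where the scale of the library cancels. FPKM summed over the 20S members was divided by FPKM summed over the 19S members, a measure chosen after the values were seen and given without a test. The ratio was 0.638, 0.730, 0.573 and 0.897 in NP replicates 1 to 4. In P replicates 1 to 4 it was 2.19, 1.59, 1.90 and 2.09. With members assigned by symbol, the 19S sum was the larger in every NP library and the 20S sum in every P library, with means of 0.709 ± 0.141 and 1.94 ± 0.264 (SD, n = 4) and no overlap.

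The 19S sum was 2194 ± 607 FPKM in NP and 1091 ± 429 in P, and the 20S sum was 1568 ± 515 and 2170 ± 1092. Without P replicate 1 the P means were 883 ± 132 for 19S and 1644 ± 361 for 20S (n = 3), so the higher 20S mean in P came largely from that library. Each of the 2 sums overlapped between datasets, 1423 to 2698 against 734 to 1714 for 19S and 815 to 1971 against 1393 to 3746 for 20S. Psmd8 alone supplied 30.8% ± 16.2 of the 19S sum in NP and 20.1% ± 3.02 in P.

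Without Psmd8 the ratio was 0.773 to 1.31 in NP and 2.05 to 2.70 in P. With the 3 most abundant members of each particle removed it was 0.712 to 1.10 and 1.25 to 3.28. Without Psmb2, whose level in P replicate 1 was far above the rest, it was 0.548 to 0.880 and 1.51 to 1.98. Assigned by role, with the Psmd chaperones and the inducible and tissue-restricted subunits left out, the ratio was 0.645 to 1.48 in NP and 1.82 to 3.42 in P. Without Psmd8, Psmd4 and Psmd5 it was 1.15 to 2.07 and 2.67 to 4.73. The datasets did not overlap in any of these, but the NP ratios no longer all lay below 1. They were above 1 in NP replicates 1 and 2 without Psmd8, in NP replicate 4 by role, and in all 4 without Psmd8, Psmd4 and Psmd5.

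The typical member separated the datasets less clearly than the sums did, since the sums weigh the abundant mRNAs most. The median log2(FPKM + 1) of the 16 tested 20S members minus that of the 20 tested 19S members was 0.34, 0.61, 0.01 and −0.01 in NP replicates 1 to 4. It was 1.67, 0.68, 0.41 and 1.47 in P replicates 1 to 4. The highest NP library therefore exceeded the lowest P library, and the means, 0.24 ± 0.30 and 1.06 ± 0.61, differed by 0.82. From NP to P of the same number the value was higher by 1.33, 0.064, 0.40 and 1.48, although no source states what a number shares. Of the 16 core members, Psmb10 and Psmb11 passed the filter in NP alone and were at 0 in most libraries. Without them, the 14 core and 20 regulatory members above 0.1 FPKM in both datasets gave a difference of means of 0.22. Without NP replicate 3 the difference of means was 0.24, but this fit held 44 members. Psmb10, above 0 in that library alone, no longer passed the filter, so the core set changed as well as the libraries. Without NP replicate 1 Psmb11 dropped out in the same way, and the difference was 0.47.

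**Figure D4:**
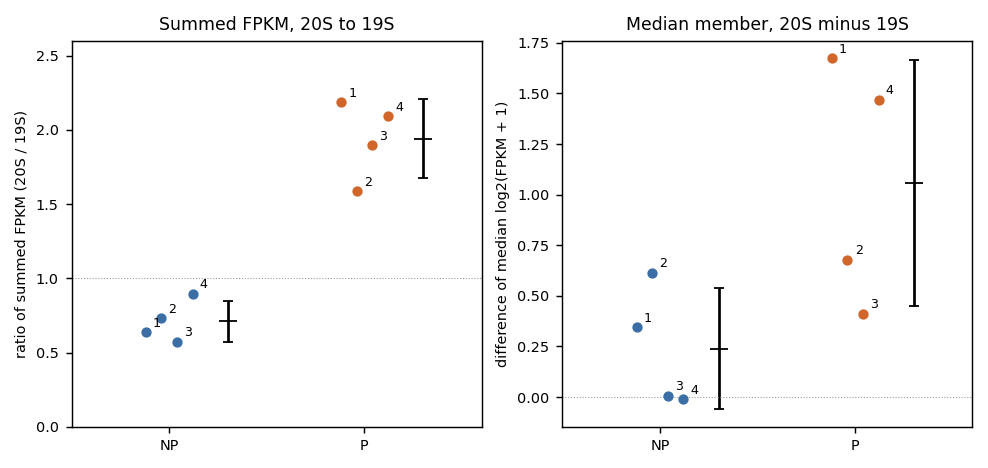
Left, the ratio of summed 20S to summed 19S FPKM in each library; right, the difference of the median log2(FPKM + 1), 20S minus 19S. Points are libraries with their replicate number, the bar is the mean ± SD of 4, and the dotted line marks equality. On the left the 4 NP libraries sit below 1 and the 4 P libraries above it, and on the right NP replicate 2 lies above P replicate 3.

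The 7 standard alpha subunits form the outer rings and the gate of the core. Their median log2 fold change was −0.09, and 4 of 7 were below 0, against 71.4% of all genes. After quantile normalization 1 of 7 was below 0, against 51.0% of all genes. Psma6 had the highest mean of the core over all libraries, with FPKM of 207, 425, 130.4 and 212 in NP replicates 1 to 4 and 284, 449, 384 and 219 in P replicates 1 to 4. Its libraries overlapped, and its log2 fold change was 0.53 ± 0.55 (SE, adjusted p = 0.703, limma).

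Psma5 had the highest log2 fold change of all members, 1.20 ± 0.73 (SE, 95% interval −0.36 to 2.76, adjusted p = 0.576, limma). Its FPKM was 34.4, 26.8, 20.2 and 23.6 in NP and 225, 36.6, 21.5 and 74.1 in P. The NP libraries were close together, while P replicate 3 lay within their range and P replicate 1 far above it. Leaving out P replicate 1 reduced its log2 fold change to 0.58, the lowest value among the fits that left out 1 library.

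Psma1 also stood above NP in part of the P libraries, with 159, 131, 100.4 and 146 FPKM in NP and 387, 105, 115 and 488 in P. Its log2 fold change was 0.72 ± 0.62 (SE, adjusted p = 0.664, limma). P replicates 1 and 4 were high and replicates 2 and 3 lay inside the NP range. Psma2 split in a similar way in P, with 576 and 418 in replicates 1 and 4 and 104 and 65.3 in replicates 2 and 3, but NP replicate 4 had 616.

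Psma4 was the one core subunit with no overlap between datasets. Its FPKM was 5.15, 6.82, 7.36 and 8.67 in NP and 1.80, 0.921, 4.27 and 4.25 in P. Every NP library was above every P library, at levels that are low for this family. Its log2 fold change was −1.18 ± 0.82 (SE, adjusted p = 0.635, limma), −0.35 after quantile normalization. The exact permutation test, unadjusted, gave p = 0.029. That is the smallest value that 70 assignments allow, and any gene without overlap gets it. Psma3 and Psma7, with means of 6.88 and 12.6 FPKM in NP and 6.37 and 9.94 in P, overlapped.

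In oocytes, translation of stored mRNAs is often controlled by the cytoplasmic polyadenylation element (CPE), a U-rich motif in the 3′ UTR that lies near the polyadenylation signal. The last 100 bases of the annotated 3′ UTR were searched on the sense strand for TTTTAT and TTTTAAT. Of 35 tested members with a window of this full length, 5 (14.3%) held a match, against 19.4% of 10995 tested genes. With shorter 3′ UTRs included, 6 members held one, of which 4 were core subunits (Psma1, Psma5, Psmb1, Psmb3), 2 were core chaperones (Psmg1, Psmg3) and 0 were among the 20 19S members. The core sequences are shown because Psma5 and Psma1 were among the core members with the highest fold changes. They were read from GRCm38 with the GENCODE M21 annotation, 5′ to 3′, with the motif in capitals.
Psma5, chr3:108279910-108279939, plus strand: gtgtgtgtgtttTTTTATgaagtctgtaca
Psma1, chr7:114264659-114264688, minus strand: ctataccaatgtTTTTATatgaagaaaata
Psmb3, chr11:97713467-97713496, plus strand: ttgtttttctTTTTAATaaaattgcctttc
Psmb1, chr17:15475027-15475056, minus strand: ttttgcttttTTTTAATaaacttctgttct
In Psmb1 and Psmb3 the last bases of the motif overlap a polyadenylation signal (AATAAA). The Psmb1 stretch lies outside the interval that the deposited table gives for this gene, chr17:15475721-15498276, and belongs to a longer annotated 3′ UTR. A log2 fold change above 0 was found for 3 of the 6 members with a match and for 12 of the 39 without. Over all tested genes with an annotated coding sequence it was found for 680 of 2175 with a match and for 2647 of 9557 without. The medians of these genes were −0.38 with a match and −0.41 without. A match is a description of letters, not of a working element.

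Of the 7 standard beta subunits, 3 had a log2 fold change below 0, against 71.4% of all genes, with a median of 0.22. After quantile normalization 2 did, against 51.0% of all genes, with a median of 0.41. Psmb2, a structural beta subunit, had the highest single value of the core, 1096 FPKM in P replicate 1. In the other P libraries it was 74.4, 33.8 and 115, and in NP it was 151, 194, 35.03 and 33.4. P replicate 1 supplied 83.1% of its summed P level, and its log2 fold change of 0.80 ± 0.96 (SE, adjusted p = 0.738, limma) became −0.21 without that library.

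None of the 3 proteolytic subunits passed the test. Psmb7, the trypsin-like subunit, had means of 195 ± 70.6 FPKM in NP and 295 ± 181 in P (SD, n = 4), with a log2 fold change of 0.49 ± 0.58 (SE). Psmb5, the chymotrypsin-like subunit and the main target of proteasome inhibitors, was lower in both, at 17.7 ± 11.4 and 27.0 ± 30.8, with 73.0 in P replicate 1 and at most 33.1 in any other library. Psmb6, the caspase-like subunit, had the lowest log2 fold change of the standard beta subunits, −0.86 ± 0.57 (SE, adjusted p = 0.612, limma), which became 0.46 with the libraries scaled to one median.

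Psmb6 had 118, 189, 70.2 and 148 FPKM in NP and 86.3, 71.6, 37.0 and 89.96 in P. Only NP replicate 3 fell within the P range. Psmb5, Psmb6 and Psmb7 all have processed pseudogenes, between which and the gene reads may have been split. Psmb4, a structural subunit, had means of 263 ± 127 and 281 ± 99.5 (SD, n = 4), Psmb1 134 ± 53.0 and 145 ± 139, and Psmb3 17.1 ± 8.37 and 14.1 ± 10.2.

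The subunits that replace standard ones in other tissues were at 0 in most libraries. Psmb9, which takes the place of Psmb6 in the immunoproteasome of interferon-treated and blood-derived cells, was listed at 0 in all 8 libraries, where 3 reads would have given 0.108 to 0.631 FPKM. Psma8, the alpha subunit of the testis proteasome and a relative of Psma7, was also listed at 0 in all 8, with 3 reads corresponding to 0.158 to 0.926 FPKM. Both limits use the merged exon length of the annotation and cover counting error only. The length that fitted the deposited values was shorter than this for 17 of the 43 members with recovered reads, by up to 4.44-fold, so the limits could be higher by as much.

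Psmb8, the immunoproteasome relative of Psmb5, had 0.100 FPKM in NP replicate 3 and 0 in the other libraries, and shares 14.7% of its exon bases with an antisense gene that unstranded libraries cannot separate. Psmb10, the relative of Psmb7, had 0.649 FPKM in NP replicate 3 and 0 elsewhere. Psmb11, the thymus subunit, had 11.9 FPKM in NP replicate 1, 0.200 in P replicate 1 and 0 in the other 6. Each of these signals sat in 1 or 2 libraries and could not be compared between datasets. The standard relatives Psmb5, Psmb6, Psmb7 and Psma7 were above 0 in all 8 libraries.

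The 19S base has 9 Psmc and Psmd subunits, the 6 ATPases Psmc1 to Psmc6 and the scaffold and receptor subunits Psmd1, Psmd2 and Psmd4. All 9 had a log2 fold change below 0 on the deposited scale, against 71.4% of all genes. Their median was −1.05, against −0.39 for all genes. With voom on recovered reads all 9 were again below 0, but the medians were close, −0.95 against −0.93 for all genes. The number below 0 fell to 6 of 9 after quantile normalization (51.0% of all genes), with a median of −0.68 against −0.02. It fell to 3 of 9 with the libraries scaled to one median (41.6% of all genes), with a median of 0.28 against 0.21. On the deposited scale a fold change past 2 in favour of NP was found for 5 of the 9, against 25.8% of all genes. These were Psmd4, Psmc1, Psmc2, Psmc3 and Psmc5.

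Psmd4, a receptor that binds ubiquitin chains on the substrate, had the largest fold change of all members. Its FPKM was 255, 467, 224 and 211 in NP and 136, 128, 23.3 and 88.6 in P. The lowest NP library lay well above the highest P library. Means were 289 ± 119.7 and 93.9 ± 51.4 (SD, n = 4). The log2 fold change was −1.81 ± 0.64 (SE, 95% interval −3.18 to −0.43) with an adjusted p of 0.416 (limma). The exact permutation test gave an unadjusted p = 0.029, the smallest value possible, as for any gene without overlap. The log2 fold change was −0.48 with the libraries scaled to one median.

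Psmc1, an ATPase of the base, had 130.2, 45.1, 78.1 and 91.3 FPKM in NP and 28.9, 13.2, 13.6 and 113 in P. In P, 3 libraries lay below all of NP and replicate 4 lay above 3 of them, for a log2 fold change of −1.49 ± 0.73 (SE, adjusted p = 0.521, limma). Psmc5, another ATPase, had means of 232 ± 96.8 in NP and 105 ± 21.5 in P (SD, n = 4), with NP replicate 1 at 106 among the P values of 73.1 to 121. Psmc2 and Psmc3 had log2 fold changes of −1.29 ± 0.81 and −1.09 ± 0.71 (SE), both with overlapping libraries.

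The log2 fold changes of the remaining base subunits were closer to 0. Psmc4 had a log2 fold change of −0.32 ± 0.60 (SE) at means of 149 and 115 FPKM, and Psmc6 one of −0.39 ± 0.93 at means of 9.41 and 10.5. The scaffold subunit Psmd2 had almost equal means, 81.5 ± 12.3 in NP and 82.3 ± 42.8 in P (SD, n = 4), with a log2 fold change of −0.11 ± 0.57 (SE). Psmd1, the other large scaffold, had −0.29 ± 0.91, with 35.7 FPKM in NP replicate 3 and at most 12.4 elsewhere.

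The lid was divided, with 4 of 8 subunits below 0, against 71.4% of all genes, and a median of 0.04. Psmd8, a lid subunit, had the highest mean over all 8 libraries, although not the highest in P. Its FPKM was 1142, 1194, 368 and 199 in NP and 279.8, 211, 140.2 and 221 in P. NP replicates 1 and 2 were far above every other library, and NP replicate 4 lay within the P range. Means were 726 ± 516 and 213 ± 57.3 (SD, n = 4). The log2 fold change was −1.44 ± 0.64 (SE, 95% interval −2.82 to −0.06) with an adjusted p of 0.492 (limma). The exact permutation test gave p = 0.11. With the libraries scaled to one median the log2 fold change was −0.10.

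The highest lid values were those of Psmd7, the partner of the deubiquitinating enzyme, and Psmd12, a structural subunit. Psmd7 had 2.94, 7.70, 7.22 and 21.99 FPKM in NP and 15.3, 8.00, 12.4 and 14.0 in P, and 3 of the 4 NP libraries lay below all of P. Its log2 fold change was 0.55 ± 0.77 (SE, adjusted p = 0.770, limma). Psmd12 had 41.9, 10.5, 31.4 and 29.5 in NP and 12.8, 98.3, 30.6 and 36.5 in P, and its log2 fold change of 0.43 ± 0.74 (SE, adjusted p = 0.802, limma) became −0.058 without P replicate 2.

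Psmd14, the deubiquitinating enzyme itself, was at a low level in both datasets, 5.90 ± 3.99 in NP and 8.05 ± 6.61 in P (SD, n = 4), with a log2 fold change of 0.26 ± 0.93 (SE). Psmd3 and Psmd6 had means of 15.8 and 62.4 FPKM in NP and 16.4 and 50.0 in P. Psmd11, whose means of 5.64 and 6.84 were among the lowest of the standard subunits, had a log2 fold change of −0.18 ± 0.95. Psmd13 had −1.18 ± 1.04, at 1.497 to 22.3 FPKM in NP and 0 to 6.77 in P, and shares 10.1% of its exon bases with Sirt3 on the other strand.

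All 3 chaperones that assemble the base, Psmd5, Psmd9 and Psmd10, had log2 fold changes below 0, against 71.4% of all genes, with a median of −0.20. With the libraries scaled to one median 0 of 3 did so, against 41.6% of all genes. Psmd5 had 329.6, 84.5, 120.0 and 712 FPKM in NP and 507, 73.8, 48.5 and 65.7 in P. Its replicates 1 and 4 were high in NP and replicate 1 was high in P, and the log2 fold change was −1.07 ± 0.83 (SE, adjusted p = 0.650, limma). Psmd9, which shares 25.5% of its exon bases with an antisense noncoding gene, had −0.20 ± 0.62, and Psmd10 had −0.16 ± 0.77.

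Of the 4 chaperones of the core, Psmg1 to Psmg4, 3 were below 0, against 71.4% of all genes. Psmg1 and Psmg2 act as a pair in building the alpha ring, yet their mRNA levels were far apart. Psmg1 had 36.0 to 91.1 FPKM in NP and 18.6 to 68.3 in P, with a log2 fold change of −0.81 ± 0.62 (SE). Psmg2 had 3.55, 0, 4.93 and 0 in NP and 0.402, 0, 0 and 0 in P, and its log2 fold change of −1.07 ± 0.59 (SE, adjusted p = 0.541, limma) rests on 3 libraries above 0. Psmg3 had 0.21 ± 1.18 at 1.15 to 31.5 FPKM in NP and 1.61 to 55.5 in P, and Psmg4 had −0.32 ± 0.77.

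Activators cap the core in place of the 19S particle, without ATP. Psme3, the nuclear activator, was the most abundant, with 51.7, 130.5, 109.6 and 126 FPKM in NP and 108, 265, 154 and 92.2 in P. Its libraries overlapped, and the log2 fold change was 0.53 ± 0.58 (SE, adjusted p = 0.717, limma). Psme4, the large activator linked to histone turnover in germ cells, had means of 36.0 ± 31.95 and 38.5 ± 29.8 (SD, n = 4). Psme1 and Psme2, the partners of the interferon-induced activator, were near 0.

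Psme1 had 0, 0, 0 and 0.298 FPKM in NP and 0.385, 4.38, 0 and 0 in P. Its log2 fold change of 0.63 ± 0.48 (SE, adjusted p = 0.644, limma) was 0.06 without P replicate 2. Psme2 had 0.178, 1.31, 2.10 and 0.149 in NP and 0.241, 0, 0 and 0 in P, with a log2 fold change of −0.74 ± 0.38 (SE). Psme2 also has a near copy, Psme2b, between which and the gene reads may have been split.

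Psmf1, a protein that blocks the core in the test tube, had 196, 259, 70.9 and 26.5 FPKM in NP and 35.7, 109, 59.7 and 20.6 in P. NP replicates 1 and 2 were above all of P, and the others lay within the P range. Its log2 fold change of −1.06 ± 0.78 (SE, adjusted p = 0.642, limma) became 0.25 with the libraries scaled to one median.

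Libraries differed in how many members peaked in them. Among the 34 core and regulatory members above 0.1 FPKM in both datasets, P replicate 1 held the highest P value for 6 of 14 core and 10 of 20 regulatory members. The 20S sum in that library was 3746 FPKM against 1393 to 2058 in the other P libraries. Its ratio of 20S to 19S, 2.19, was nevertheless within 0.1 of that of P replicate 4.

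Genes that work with the proteasome were counted for comparison, and 25 of a list of 26 were found in the table. They include the maturation factor Pomp, ubiquitin genes, shuttle proteins and the regulators of proteasome transcription. Of these, 18 had a log2 fold change below 0 (71.4% of all genes), with a median of −0.38, and 0 were called by limma (0.0210% of all genes). At an unadjusted p below 0.05, 4 were higher in NP (9.47% of all genes) and 0 were higher in P (0.476%). The same 4 had no overlap between libraries (5.92% of all genes). Adrm1, a ubiquitin receptor of the 19S base, had 7.49 to 21.4 FPKM in NP and 1.06 to 5.87 in P, a log2 fold change of −2.08 ± 0.82 (SE, adjusted p = 0.441, limma). Rad23b, a shuttle that brings ubiquitinated proteins to the proteasome, had 43.4 to 107 in NP and 4.95 to 26.8 in P, a log2 fold change of −1.94 ± 0.69 (SE, adjusted p = 0.416, limma). Ubqln4, another shuttle, had −2.22 ± 0.85, and Ngly1, which removes glycans from misfolded proteins, had −1.89 ± 0.81. The median of the list as a whole lay near that of all genes.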

How the data were processed

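RNA of non-polysomal (fractions 2 to 5) and polysomal (fractions 6 to 10) pools was depleted of ribosomal RNA, primed with oligo(dT) and random primers, amplified and sequenced without strand information, in 4 NP and 4 P libraries. The study describes the 4 polysome profiles as independent replicates, and both pools were cut from them. Per the submitters' processing notes, the authors used Trim Galore 0.4.1 for trimming and HISAT2 2.0.5 with the GRCm38 build for mapping, and deposited FPKM values per gene, with 0 where no read was counted. Authors' tables of expressed genes and of DESeq2 fold changes and p values were not used. Groups and replicate numbers came from the sample titles.

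Genes passed for testing if either dataset had a mean over 0.1 FPKM, and were tested two-sided with limma 3.58.1 in R 4.3.3 (trend, no block) on log2(FPKM + 1), with Benjamini-Hochberg adjustment over 14292 genes and a threshold of 0.1. A fold change on this scale understates that of low genes. Whole reads were recovered from FPKM steps for 14084 genes (97.7% of values, tolerance 0.01 of a step), including 43 members, and tested with voom. The sources used here do not say if such a read is one end or a fragment. The filter on low values was met by 45 members, some of them through 1 dataset alone. Single genes were also compared by exact permutation over 70 assignments.

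The members, gene lists and roles were chosen with earlier results of these data known. Full values are given for members with no overlap, with an unadjusted p below 0.05, with the 2 highest and 2 lowest fold changes or the highest mean of each group, and for Psmb8, Psmb9, Psmb10, Psmb11 and Psma8. Psma1, Psma2, Psmd5, Psmd13, Psme2 and Psmg1 were added after their values were seen. Reads from amplified cDNA are not independent molecules, so limits for 3 reads cover counting error only.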

Additional observations from a re-analysis of the deposited data

Results flagged for a closer look

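For 6 sets of 4 libraries out of 32 examined, 1 library was set apart from the other 3, with a gap to its nearest neighbour on the log2(FPKM + 1) scale that took a larger share of the whole range than Dixon's 95% critical value. For normal replicates chance gives this in about 1 of 20 sets. The 32 sets cover only part of the members. In all 6 the ratio was 1 because the other 3 libraries were listed at 0, whatever the value of the remaining library. The rate of 1 in 20 therefore cannot be set against 6 of 32. The values were 11.9 FPKM for Psmb11 in NP replicate 1, 0.200 for Psmb11 in P replicate 1, 0.649 for Psmb10 and 0.100 for Psmb8 in NP replicate 3, 0.298 for Psme1 in NP replicate 4, and 0.402 for Psmg2 in P replicate 1. Apart from Psmg2, these genes are inducible or tissue-restricted. The cause was not tested.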

How the results depend on the processing

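The count of members called stayed at 0 in every alternative. The count of called genes was 3, and it was 5 with a pseudocount of 0.1 or a filter at 1 FPKM, 0 without a filter, with quantile normalization or with libraries scaled to one median, 1 with the replicate block, 198 with voom, and 0 to 5 when 1 library was left out. Same-numbered libraries were not taken as pairs, since no source states what a number shares. Their deviations correlated at 0.139, 0.0518, 0.251 and 0.155, and those of libraries with different numbers at −0.135 to 0.136. Each P library correlated best with the NP library of its own number, but NP replicate 2 correlated better with P replicate 1, at 0.136, than with its own. From NP to P of the same number, the difference between core and regulatory medians was higher by 1.33, 0.064, 0.40 and 1.48. The block changed no call of a member. The difference between the members' median and that of all genes, 0.10, was 0.67 with libraries scaled to one median and 0.75 with voom. It was 0.50 with a pseudocount of 0.1, 0.29 with a filter at 1 FPKM and 0.017 without a filter. With quantile normalization it was 0.12, and with 1 library left out −0.11 to 0.30. The difference between core and regulatory medians, 0.82, was 0.23 with voom, 0.22 for members above 0.1 FPKM in both datasets, and 0.24 to 1.04 with 1 library left out. These values do not all use the same core members. The main value used 16, among them Psmb10 and Psmb11, which were at 0 in most libraries. The values for voom and for members above 0.1 FPKM in both datasets used 14, without these 2 genes. The value of 0.24, without NP replicate 3, left out Psmb10. The difference in the ratio of sums, 1.23, was 1.64 without Psmd8, Psmd4 and Psmd5, 1.54 by role, and 1.15 to 1.35 with 1 library left out. Signs of single genes were followed only for the tested members picked for full values by rule, not for those added later. Among them, reversed signs were found for Psmf1 (0.25) and Psmb6 (0.46) with libraries scaled to one median. The same held for Psmb2 (−0.21) without P replicate 1 and for Psmd12 (−0.058) without P replicate 2. With 1 library left out the ranges were −0.21 to 1.45 for Psmb2 and −0.058 to 0.89 for Psmd12. Over all 45 tested members more signs changed with the scale. Values below 0 were found for 30 members on the deposited scale, 19 after quantile normalization and 10 with libraries scaled to one median. The cause of these shifts was not tested. The alternatives on the ratio of sums and on members above 0.1 FPKM in both datasets were chosen after seeing the data. Depth limits low members most, since 3 reads on Psmb9 equal 0.631 FPKM in NP replicate 2.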

Other observations

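Core and regulatory members differ in the length of what is translated. The median coding length was 757.5 bases for the 16 tested 20S members and 1239 bases for the 20 tested 19S members, against 1401 bases for all tested genes with an annotated coding sequence. Spearman's rho of the coding length with the log2 fold change was −0.06 across the 20S genes, −0.02 across the 19S genes, −0.37 across the 9 others and −0.26 across all 45 tested members. The median annotated 3′ UTR was 161 bases for 20S, 325 bases for 19S and 953.5 bases for all genes, and rho with the log2 fold change was −0.01 for 20S, 0.33 for 19S, 0.08 for the others and 0.13 over all members. These are descriptions across genes, which are not replicates.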
